A study of Mus musculus with 8 samples.

Results

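The 10 genes described here are transcriptional targets of p53: Cdkn1a, Mdm2, Ccng1, Trp53inp1, Bbc3, Zmat3, Phlda3, Plk2, Eda2r and Sesn2. They were taken by symbol from the 23284 genes of the deposited expression table, and all 10 were found in it. RNA was sequenced from mouse induced pluripotent stem cells (iPSCs), which were reprogrammed from embryonic fibroblasts and grown on feeder cells. The knock-in cells were homozygous for miR-203 at the ColA1 locus and for rtTA, the doxycycline-dependent activator, at Rosa26. In the dox group, clones 1 and 2 of these cells received doxycycline for 5 days, which induces miR-203 transiently, followed by 2 weeks of withdrawal. In the vehicle group, knock-in clones numbered 1 and 2 were not induced but carried the same alleles, so both groups share the miR-203 insertion and the activator. The labels conflict here: the titles and the treatment field call these libraries not induced and vehicle, but the description and the protocol text give doxycycline for every knock-in library. The titles and the treatment field were followed, and each difference between dox and vehicle rests on them. The other 4 libraries came from iPSCs with wild-type ColA1 and Rosa26 alleles, collected 1 week after transfection. They had received Dnmt3a siRNA (siDnmt3a), Dnmt3b siRNA (siDnmt3b), both (double siRNA) or control siRNA (siControl), with 1 library each. Genotype, transfection and culture history differed together between the knock-in and wild-type cells and cannot be told apart. The series text states that the siRNA profiles were made to be set beside those of transient miR-203 induction.

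p53 is a transcription factor that the ubiquitin ligase Mdm2 holds low and that accumulates after DNA damage and other stress. It binds response elements near its target genes and turns on arrest of the cell cycle, DNA repair, changes of metabolism or apoptosis. Several of its targets, Mdm2 among them, feed back on p53 itself. Pluripotent stem cells have a short G1 phase, and the p53 pathway limits their formation by reprogramming. The mRNA levels given here measure neither p53 protein nor its activity.

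Start regions of 4 genes and the induced microRNA are shown because p53 acts on its targets through DNA elements and the knock-in places the microRNA under doxycycline control. No wild-type cells given doxycycline were analysed here, so effects of the drug and of miR-203 cannot be told apart. Windows of 300 bases, from 250 bases before to 50 bases after the annotated start, were taken from RefSeq (GRCm38.p6) and matched 8 members in 11 windows. Trp53inp1 and Zmat3 had no entry. The windows were searched on both strands for the consensus decamer of the p53 response element, a consensus that is its own reverse complement, and for no other motif. It was found in 3 of the 11 windows, those of Cdkn1a, Mdm2 and Ccng1, against 8.36% of all 32851 windows. The first Cdkn1a window, at chr17:29090729-29091028 on the plus strand, held decamers that begin 73 and 51 bases before the start. A pair of decamers with at most 13 bases between them, the form of a complete element, was present there and in 0.0731% of all windows. The second Cdkn1a window, at chr17:29093519-29093818 on the plus strand, belongs to another annotated start, held no decamer and is not shown. In the Mdm2 window, at chr10:117710709-117711008 on the minus strand, the decamer begins 186 bases before the start. In the Ccng1 window, at chr11:40755237-40755536 on the minus strand, it begins 185 bases before the start. The Plk2 window, at chr13:110394794-110395093 on the plus strand, held no match and is shown because Plk2 had the largest difference of the 10 between dox and vehicle. A match describes these letters only, and DNA outside the windows was not searched. In these sequences, written 5′ to 3′ on the gene's strand, capitals mark the decamers.
Cdkn1a: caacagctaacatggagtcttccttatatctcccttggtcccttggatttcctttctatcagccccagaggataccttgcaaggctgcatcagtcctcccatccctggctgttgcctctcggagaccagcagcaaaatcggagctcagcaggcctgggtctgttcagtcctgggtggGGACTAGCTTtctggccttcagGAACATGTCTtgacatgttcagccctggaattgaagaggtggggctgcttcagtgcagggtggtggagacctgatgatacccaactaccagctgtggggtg
Mdm2: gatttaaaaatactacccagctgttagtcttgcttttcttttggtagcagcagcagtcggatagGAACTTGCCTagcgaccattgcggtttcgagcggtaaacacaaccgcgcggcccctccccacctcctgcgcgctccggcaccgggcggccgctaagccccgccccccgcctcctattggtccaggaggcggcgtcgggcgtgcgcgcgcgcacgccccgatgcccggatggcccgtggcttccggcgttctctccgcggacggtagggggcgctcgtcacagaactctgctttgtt
Ccng1: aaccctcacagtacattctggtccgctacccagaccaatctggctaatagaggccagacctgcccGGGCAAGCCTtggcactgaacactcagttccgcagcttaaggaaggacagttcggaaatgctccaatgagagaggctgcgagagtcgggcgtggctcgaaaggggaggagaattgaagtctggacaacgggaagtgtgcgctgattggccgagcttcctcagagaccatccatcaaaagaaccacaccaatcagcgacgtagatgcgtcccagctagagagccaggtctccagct
Plk2: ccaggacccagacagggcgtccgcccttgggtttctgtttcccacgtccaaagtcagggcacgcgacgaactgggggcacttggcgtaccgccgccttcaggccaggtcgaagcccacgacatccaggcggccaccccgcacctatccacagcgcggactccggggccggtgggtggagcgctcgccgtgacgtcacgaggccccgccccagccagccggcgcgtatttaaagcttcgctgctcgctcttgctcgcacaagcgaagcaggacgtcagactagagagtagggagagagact

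The mature miR-203-3p (RefSeq, GRCm38.p6, chr12:112130927-112130948, plus strand) is shown with its seed, bases 2 to 8, in capitals, because matches to it were counted in the members.
miR-203-3p: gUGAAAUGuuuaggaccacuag

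Matches to this seed were counted in the 3′ UTR of each gene's longest coding transcript in GENCODE M21 on GRCm38. Zmat3 held 3 matches in a 3′ UTR of 6692 bases. Ccng1, Phlda3 and Plk2 held 1 each, in 3′ UTRs of 2316, 727 and 620 bases, and the other 6 members held none. A match was thus present in 4 of the 10 members, against 16.7% of 11530 expressed coding genes, whose median 3′ UTR was 1122 bases. The mean was higher in dox than in vehicle for these 4, of which Zmat3 did not pass the test given below, and for 3 of the 6 without a match. The difference between these counts was not tested. The libraries were collected after withdrawal, and the level of miR-203 itself was not analysed here.

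All 10 members are protein-coding, and each value is for the whole gene. On GRCm38, Cdkn1a lies at chr17:29090976-29100727 (plus strand), Mdm2 at chr10:117688875-117710758 (minus strand) and Ccng1 at chr11:40748552-40755311 (minus strand). Trp53inp1 lies at chr4:11156431-11174379 (plus strand), Bbc3 at chr7:16308393-16318205 (plus strand) and Zmat3 at chr3:32334792-32366014 (minus strand). Phlda3 lies at chr1:135766119-135769136 (plus strand) and Plk2 at chr13:110395046-110400844 (plus strand). Eda2r lies at chrX:97333840-97377216 (minus strand) and Sesn2 at chr4:132492032-132510501 (minus strand). Exons of Cdkn1a overlap those of an annotated transcript on the opposite strand by 261 bases. The libraries were strand-specific per the labels, but no source used here gives the strand setting of the counting.

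Expression is given as FPKM, a fragment count divided by transcript length and by library size, so levels of different genes are compared per length. Between 11620 and 12076 genes per library were at 1 FPKM or more, and the depth in fragments is unknown. Pluripotency markers (10 genes) summed to 4460 and 4330 FPKM in dox, 3860 and 3460 in vehicle, and 3030 to 3830 in the wild-type cells. Feeder fibroblast markers (12 genes) summed to 1610 and 1690 FPKM in dox, 295 and 358 in vehicle, 71.5 to 83.8 in the libraries with Dnmt3 siRNA and 147 in siControl. Macrophage markers (8 genes) summed to 269 and 348 FPKM in dox, 201 and 229 in vehicle, and 132 to 182 in the wild-type cells. Interferon response genes (12) summed to 522 and 479 FPKM in dox, 1250 and 1460 in vehicle, and 142 to 186 in the wild-type cells. No fibroblast or macrophage marker was at 0 in any library. All 12 fibroblast markers rose in dox against vehicle by limma, with a median of 1.81 (log2), as did 4 of 8 macrophage markers. All 12 interferon genes fell, with a median of -1.44. Of all genes tested, 17.1% were higher and 14.8% lower. The part of these cells and of the interferon response in the results below was not tested. In RNA from whole cultures, fewer cells of a type and less RNA per cell cannot be told apart.

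**Figure D1:**
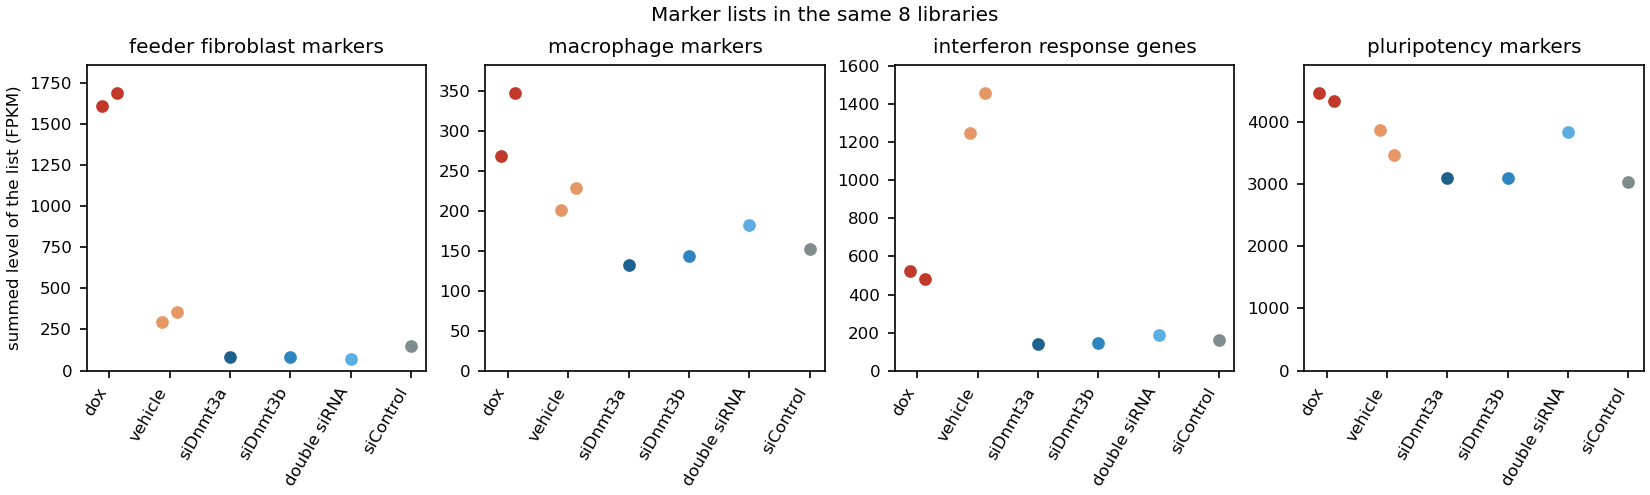
Summed FPKM (vertical axis, linear from 0) of feeder fibroblast, macrophage, interferon response and pluripotency genes, 1 point per library, in 8 libraries. The fibroblast sum reached 1610 and 1690 in the dox libraries, against 295 and 358 in the vehicle libraries, and the interferon sum was highest in vehicle, at 1250 and 1460.

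The members spanned a wide range of levels. In the dox libraries Cdkn1a was the highest of the 10, at 166 and 197 FPKM, and Eda2r the lowest, at 7.35 and 7.79. The order from top to bottom was the same in both dox libraries: Cdkn1a, Ccng1, Phlda3, Sesn2, Mdm2, Plk2, Zmat3, Trp53inp1, Bbc3 and Eda2r. In the vehicle libraries Cdkn1a, Ccng1 and Sesn2 led and Bbc3 was the lowest, at 9.55 and 7.58 FPKM. Eda2r, next above it at 10.8 and 9.10 FPKM, overlapped with it over the clones, and Mdm2 and Phlda3 changed places between the vehicle libraries. In siControl, Cdkn1a (40.5 FPKM), Ccng1 (39.2), Mdm2 and Sesn2 (33 each) lay close together, and Plk2 stood ninth at 8.45. Cdkn1a and Ccng1 changed places among the wild-type libraries, so their order there is within the spread. Among all genes at 1 FPKM or more in the same library, Cdkn1a stood at percentile 96.5 and 97.2 in dox, 94.9 and 95.1 in vehicle, and 82.2 in siControl. Plk2 stood at percentile 79.2 and 80.6 in dox, 64.6 and 62.0 in vehicle, and 43.9 in siControl. Over the 8 libraries, the highest level was 5.74 times the lowest for Cdkn1a and 4.98 times for Plk2, but 1.31 times for Mdm2 and 1.29 times for Zmat3.

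**Figure D2:**
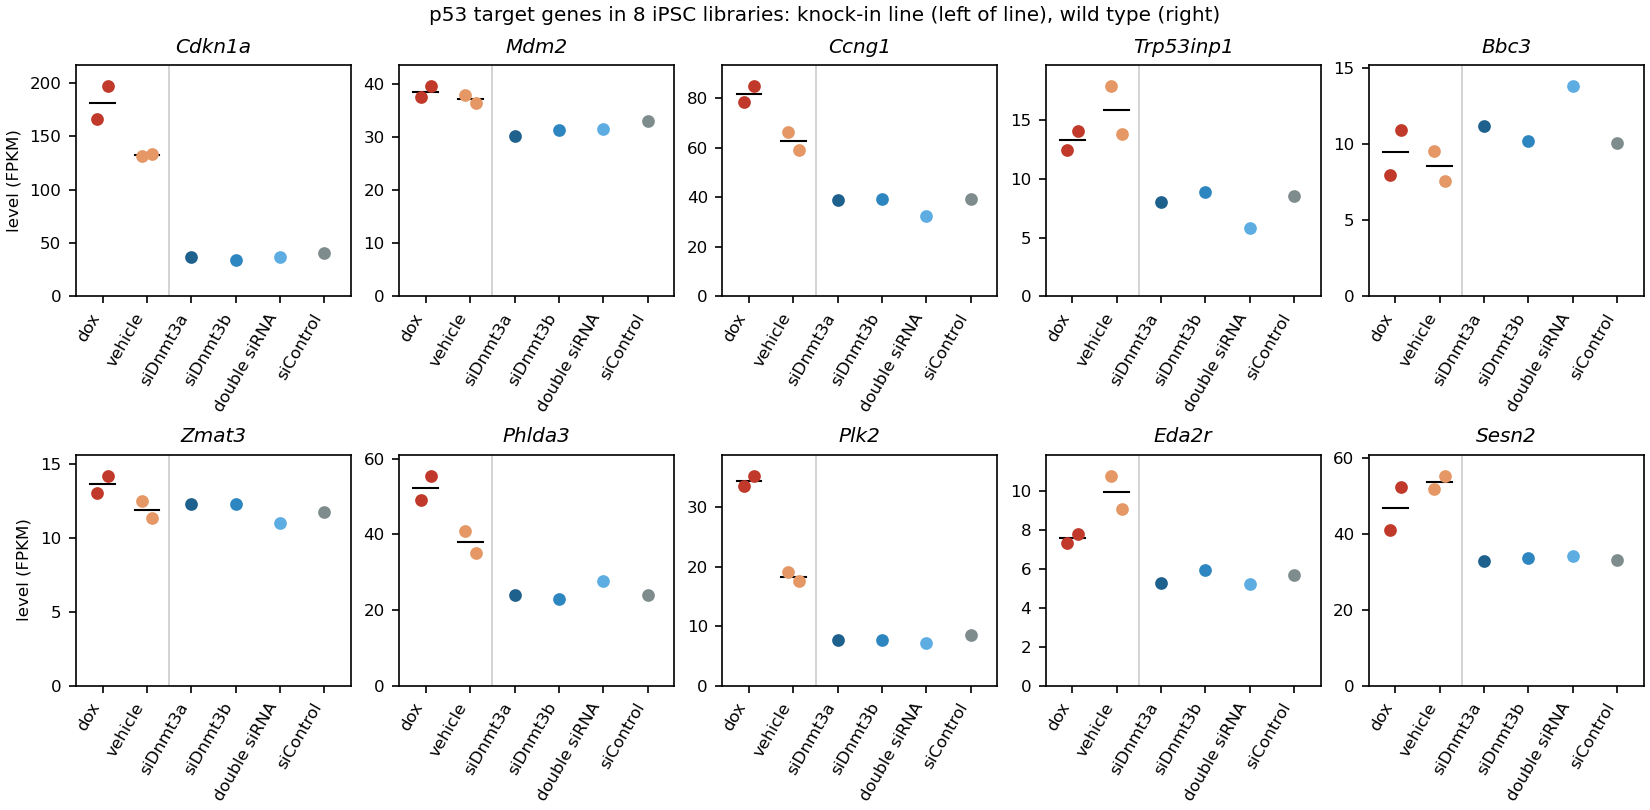
Level of each p53 target gene in FPKM (vertical axis, linear from 0, scaled per gene) in every library, with the knock-in groups left of the grey line and the wild-type libraries right of it. Points are libraries and black bars are means of 2 clones. Cdkn1a, Plk2, Ccng1 and Phlda3 were highest in both dox libraries, Eda2r in both vehicle libraries, and Mdm2 and Zmat3 varied by no more than 1.31 times.

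The comparison of dox with vehicle asked how the p53 targets stood after transient induction of miR-203. Plk2, Phlda3, Cdkn1a and Ccng1 rose and Eda2r fell, while Mdm2, Bbc3, Zmat3, Trp53inp1 and Sesn2 did not pass the test. The 4 higher members were 4 of 10, where 17.1% of all 11927 genes tested were higher, and the 1 lower member stood against 14.8% of all genes. The median difference of the 10 was 0.15, against -0.01 for all genes. Differences are of log2(FPKM + 1), tested with limma over all genes with a mean of 1 FPKM or more, a filter that all 10 members passed, at a Benjamini-Hochberg adjusted p of 0.05. The labels do not say how independent the clones were, so p-values measure only the spread between these libraries. Dox lay above vehicle without overlap for 5 members and below it for 1, where 35.1% and 37.1% of all genes did so.

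The arrest genes Cdkn1a and Plk2 were both higher in dox. Cdkn1a encodes p21, the inhibitor of cyclin-dependent kinases through which p53 arrests the cell cycle. It had 166 and 197 FPKM in the dox libraries, against 132 and 133 FPKM in the vehicle libraries, so both dox clones lay above both vehicle clones. The difference was 0.45 (SE 0.094, n = 2 each, limma adjusted p = 0.0166), and the ratio of the means was 1.37. Leaving out vehicle clone 1 gave an adjusted p of 0.0593, the highest among 13 alternatives, which began at 0.000266. Plk2, a polo-like kinase of centriole duplication that p53 induces, had 33.6 and 35.3 FPKM in dox, against 19 and 17.5 FPKM in vehicle. Its groups stood farthest apart of the 10, with a difference of 0.88 (SE 0.084, n = 2 each, limma adjusted p = 0.00109) and a ratio of means of 1.89. Plk2 passed the test in all 13 alternatives, with adjusted p between 7.05e-06 and 0.0134.

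Of the genes that feed back on p53, Ccng1 was higher in dox and Mdm2 did not pass the test. Ccng1 encodes cyclin G1, which brings a phosphatase to Mdm2. It had 78.6 and 84.8 FPKM in dox, against 66.2 and 59.0 FPKM in vehicle, and the groups did not overlap. The difference was 0.38 (SE 0.087, n = 2 each, limma adjusted p = 0.0213). The call was lost without dox clone 2 (adjusted p = 0.0606) or vehicle clone 2 (0.0959), in a range of 0.00142 to 0.0959 over the alternatives. After the correction for GC content and transcript length that difference was 0.59 (adjusted p = 0.00676). Mdm2 had 37.5 and 39.5 FPKM in dox, against 37.8 and 36.3 FPKM in vehicle, so the groups overlapped. Its difference was 0.053, with a 95% interval of -0.13 to 0.24 (limma adjusted p = 0.618). Mdm2 gave no detectable difference in the libraries where Cdkn1a and Plk2 rose. Zmat3, a zinc finger protein that binds RNA, had 13 and 14.2 FPKM in dox, against 12.5 and 11.3 FPKM in vehicle. Its dox values lay just above the vehicle values, and the difference of 0.18 had an interval of -0.05 to 0.41 (limma adjusted p = 0.179).

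The genes of survival and death went different ways. Phlda3, which competes with the kinase Akt for membrane lipids, had 49.2 and 55.6 FPKM in dox, against 40.8 and 35.2 FPKM in vehicle. The groups did not overlap, and the difference was 0.46 (SE 0.10, n = 2 each, limma adjusted p = 0.0206). This call was lost without vehicle clone 2 (adjusted p = 0.0818) and after the GC and length correction (difference 0.29, adjusted p = 0.0630). Its range over the alternatives was 0.00145 to 0.0818, and Phlda3 is GC-rich, at 62.6% against a median of 50.3%. Eda2r, a receptor of the tumour necrosis factor family for ectodysplasin A2, had 7.35 and 7.79 FPKM in dox, against 10.8 and 9.10 FPKM in vehicle. It was the member that fell, by 0.35 (SE 0.11, n = 2 each, limma adjusted p = 0.0497), close to the threshold. Without dox clone 1, dox clone 2 or vehicle clone 1 its adjusted p was 0.108, 0.0769 and 0.262, and the range over the alternatives was 0.0106 to 0.262. After the GC and length correction its difference was -0.19 (adjusted p = 0.231).

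Bbc3, the BH3-only protein Puma that triggers apoptosis, had 8.00 and 10.9 FPKM in dox, against 9.55 and 7.58 FPKM in vehicle. The groups overlapped, and the difference of 0.12 had an interval of -0.27 to 0.51 (limma adjusted p = 0.597). Trp53inp1, a stress protein of p53 signalling and autophagy, had 12.5 and 14.1 FPKM in dox, against 17.9 and 13.8 FPKM in vehicle. These groups overlapped too, because vehicle clone 2 lay below dox clone 2, and the difference was -0.23 (interval -0.55 to 0.09, limma adjusted p = 0.228). Sesn2, a sestrin that restrains the growth kinase complex mTORC1 and is also induced by the stress factor ATF4, had 40.9 and 52.4 FPKM in dox, against 51.8 and 55.3 FPKM in vehicle. Dox clone 1 stood apart below the other 3 libraries. The Sesn2 difference was -0.21 (interval -0.50 to 0.09, limma adjusted p = 0.233). With the clone number as a block its adjusted p was 0.0346, and without dox clone 2 the difference was -0.38 with an adjusted p of 0.0286, in a range of 0.0286 to 0.837 over the alternatives. In the blocked fit 25.6% of all genes were higher and 26.7% lower.

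Dox and vehicle libraries were also paired by clone number, although it is unknown whether libraries with a shared number come from a shared clone. For the 5 members that passed the test only the sizes of these differences are informative. Their groups did not overlap, so the sign was fixed. For Cdkn1a, Ccng1, Phlda3 and Plk2 the dox difference was 0.33, 0.24, 0.27 and 0.79 in clone 1 and 0.56, 0.52, 0.65 and 0.97 in clone 2. For Eda2r it was -0.51 in clone 1 and -0.20 in clone 2. In this pairing the 4 rising members had larger differences between the libraries numbered 2, and the falling member between those numbered 1. Each value comes from 1 pair of libraries, with no test of the difference. The sizes depend on the pairing, and the opposite pairing is not given here, so no effect particular to a clone can be read from them.

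**Figure D3:**
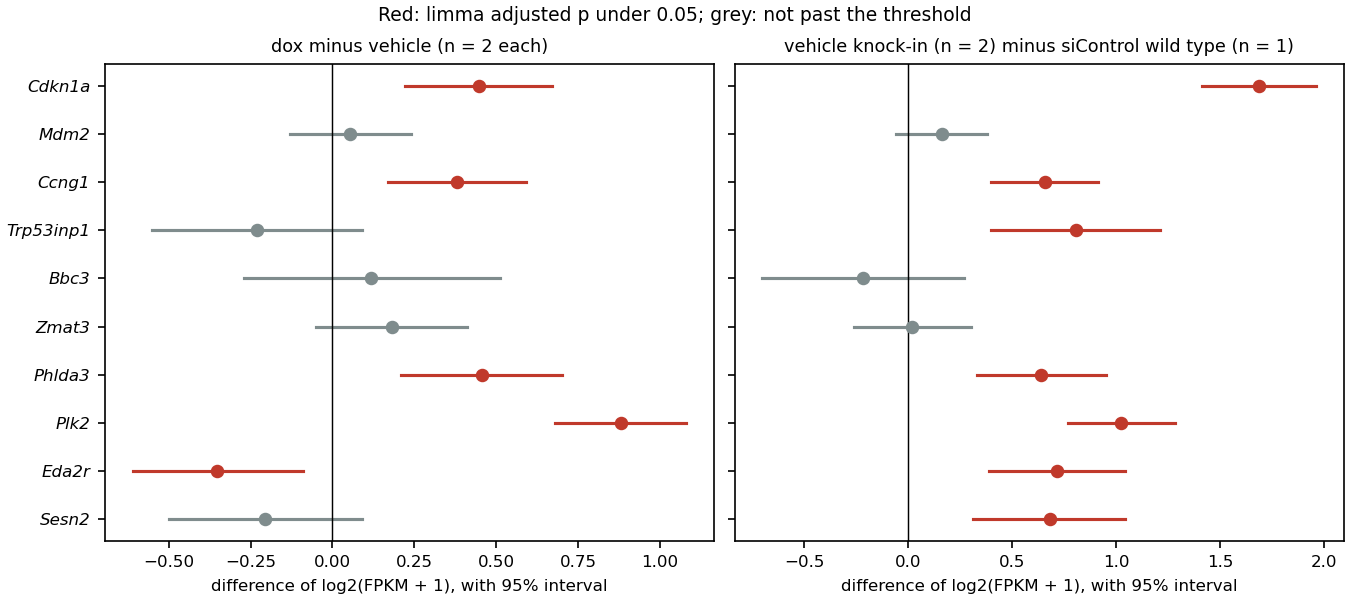
Difference of log2(FPKM + 1) with its 95% interval from limma (horizontal axis) for each p53 target gene, between dox and vehicle on the left and between vehicle knock-in and siControl wild-type cells on the right. Red marks an adjusted p under 0.05. Plk2 stood highest on the left at 0.88 and Cdkn1a on the right at 1.69, and Eda2r was below 0 on the left and above it on the right.

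The knock-in line without induction was then set against the wild-type line. In vehicle cells 7 of the 10 members were higher than in siControl, where 25.2% of all 12036 genes tested were higher, and none was lower, where 19.5% of all genes were lower. None of the 10 was lower at an unadjusted p under 0.05 either, by limma. The fit held siControl, vehicle and dox libraries, and the lone siControl library is assumed to vary like the knock-in libraries. This comparison shares the vehicle libraries with that of dox, on the opposite side, so a high vehicle value raises the one and lowers the other. The median of the members was 0.67, against 0.03 for all genes.

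Cdkn1a had 132 and 133 FPKM in vehicle, against 40.5 FPKM in siControl, and 34.3 to 36.8 FPKM in the other wild-type libraries. The difference was 1.69 (SE 0.12, limma adjusted p = 0.000159), and the mean of vehicle was 3.27 times siControl. Plk2 had 19 and 17.5 FPKM in vehicle, against 8.45 FPKM in siControl, a difference of 1.03 (SE 0.10, limma adjusted p = 0.000678). Both genes were thus lowest in the wild-type cells, higher in vehicle and highest in dox. Trp53inp1 had 17.9 and 13.8 FPKM in vehicle, against 8.55 FPKM in siControl (difference 0.81, limma adjusted p = 0.0104). It did not pass after the GC and length correction, at 0.47 with an adjusted p of 0.0637, in a range of 0.000376 to 0.0637 over the alternatives, and Trp53inp1 has the lowest GC content of the 10, at 38.8%. Eda2r had 10.8 and 9.10 FPKM in vehicle, against 5.66 FPKM in siControl (difference 0.72, limma adjusted p = 0.0073). Sesn2 had 51.8 and 55.3 FPKM in vehicle, against 33 FPKM in siControl (difference 0.68, limma adjusted p = 0.0132). The means of these 3 genes were highest in vehicle, with dox means between those of vehicle and siControl, but for Trp53inp1 and Sesn2 the dox and vehicle libraries overlapped and the difference did not pass the test. Ccng1 and Phlda3 differed by 0.66 and 0.64 (limma adjusted p = 0.00395 and 0.00882), and their dox values were higher still. After the GC and length correction Ccng1 was at 0.36 (adjusted p = 0.0421, in a range of 5.7e-05 to 0.0421 over the alternatives). Phlda3 was then at 1.02 (adjusted p = 0.000991, in a range of 0.000289 to 0.0501).

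The remaining 3 members did not pass the test between vehicle and siControl. Mdm2 had 37.8 and 36.3 FPKM in vehicle, against 33 FPKM in siControl, and the interval of the difference was -0.06 to 0.38. When the level of the wild-type cells was taken from all 4 of their libraries, Mdm2 passed, at 0.23 (limma adjusted p = 0.00751), in a range of 0.00751 to 0.571 over the alternatives. In that fit 4135 of all genes were higher and 3873 lower. Zmat3 had 12.5 and 11.3 FPKM in vehicle, against 11.7 FPKM in siControl (interval -0.26 to 0.30). Bbc3 had 9.55 and 7.58 FPKM in vehicle, against 10.1 FPKM in siControl (interval -0.70 to 0.27). Over all libraries, the 4 knock-in libraries lay above the 4 wild-type libraries for 8 members and below them for none. Of 12042 genes, 30.5% had knock-in above wild type without overlap and 30.2% below. The exceptions were Bbc3 and Zmat3.

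The mRNA of p53 was lower in vehicle than in siControl, the comparison in which 7 of the 10 members were higher. Trp53, the p53 gene (chr11:69580359-69591873, plus strand), had 144 and 123 FPKM in dox, 176 and 154 FPKM in vehicle, and 241 to 265 FPKM in the wild-type libraries. Against siControl the vehicle difference was -0.57 (limma adjusted p = 0.0139), opposite in sign to that of Cdkn1a. Between dox and vehicle the Trp53 difference was -0.30 (interval -0.55 to -0.05, limma adjusted p = 0.0706), which did not pass the test. Mdm4, the partner of Mdm2 in holding p53 back, had 23.2 and 28 FPKM in dox, 27.6 and 25.8 FPKM in vehicle, and 8.36 to 11.3 FPKM in the wild-type libraries. It was higher in vehicle than in siControl by 1.18 (limma adjusted p = 0.00102) and did not pass the test in dox, at -0.06 (limma adjusted p = 0.686).

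Of 23 regulators of p53 tested, Trp53 and Mdm4 included, 3 were higher and 3 lower in dox. These counts are near the shares of all genes, 17.1% higher and 14.8% lower, and show nothing particular to the list. Cdkn2a, the locus of p16 and of Arf, which sequesters Mdm2, had 81.1 and 85.4 FPKM in dox, against 47.8 and 56.1 FPKM in vehicle (difference 0.67, limma adjusted p = 0.00436). Bcl6, a repressor of p53 transcription, and Ppp1r13l, the inhibitor iASPP, differed by 0.97 and 0.49 (limma adjusted p = 0.0105 and 0.0462). Sirt1, a deacetylase that restrains p53, and the damage kinases Chek1 and Atm were lower, at -0.68, -0.46 and -0.41 (limma adjusted p = 0.0397, 0.0106 and 0.0362). Both directions held genes that restrain p53 and genes that activate it.

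Of 30 other p53 targets, 6 rose and 2 fell in dox, with a median of 0.16, where 17.1% of all genes were higher and 14.8% lower. The count of higher genes is close to that share. Thbs1, the matrix protein thrombospondin 1, had 214 and 244 FPKM in dox, against 71.7 and 84.5 FPKM in vehicle (difference 1.54, limma adjusted p = 0.00038). This gene is also made by fibroblasts, whose markers were higher in the same libraries. Ephx1, an epoxide hydrolase, Dram1, a lysosomal protein of autophagy, the stress cytokine Gdf15 and the adenylate kinase Ak1 differed by 1.14, 0.99, 0.86 and 0.42. The 2 that fell, Gtse1 and Fbxw7, differed by -0.38 and -0.31 and were named after their values were seen. Against siControl, 15 of the 30 were higher in vehicle and 3 were lower, with a median of 0.34, where 25.2% of all genes were higher and 19.5% lower. Among the 15 higher ones were Fas (2.28), Ephx1 (1.86) and Thbs1 (1.61), named after their values were seen. The 3 lower ones, also named after their values were seen, were the phosphatase Ppm1d (-0.79), the growth arrest gene Gadd45a (-0.91) and the BH3-only gene Pmaip1 (-0.76).

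A list of 20 cell cycle genes held cyclins, kinases and regulators of G1 together with genes of later phases that p53 is known to lower through p21. In dox 1 was higher and 7 were lower, with a median of -0.16, where 17.1% of all genes were higher and 14.8% lower. Ccne1 and Ccne2, the E cyclins of S phase entry, differed by -0.59 and -0.68 (limma adjusted p = 0.00232 and 0.00891). The mitotic kinase Aurka and the cyclins Ccna2 and Ccnb1 differed by -0.43, -0.41 and -0.37. The higher gene was Ccnd2, a D cyclin of G1, which had 35.4 and 33.3 FPKM in dox, against 19.3 and 20.9 FPKM in vehicle. Between vehicle and siControl the same list gave 3 higher and 5 lower, with a median of -0.06, where 25.2% of all genes were higher and 19.5% lower.

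Paralogs of the members did not all follow them. Of 12 tested, 2 were higher and 3 lower in dox, against 17.1% and 14.8% of all genes, so the count of higher ones is at the share of all genes. Trp53inp2 differed by 0.89 (limma adjusted p = 0.00109), where Trp53inp1 was at -0.23. Ccng2 was higher by 0.44, the p21 relative Cdkn1c was at -0.47, and the polo-like kinases Plk1 and Plk4 were at -0.37 and -0.33, where Plk2 was at 0.88. Cdkn1c had 1.03 and 1.24 FPKM in dox and 2.21 and 1.72 in vehicle, against 40.0 FPKM in siControl, opposite to Cdkn1a. Of 9 BCL2 family genes tested, 2 were higher and 1 lower in dox, near the 17.1% and 14.8% of all genes. The BH3-only genes Bmf and Bad were higher, by 0.45 and 0.32, and Bok was at -0.54. Of 8 targets of the integrated stress response and ATF4, a list that also holds Sesn2, 2 were higher in dox and none lower, against the same shares of all genes. These were Ddit3, the factor CHOP, with 58.1 and 66.9 FPKM in dox, against 27.8 and 31.6 FPKM in vehicle (difference 1.05), and the asparagine synthetase gene Asns (difference 0.50). No gene of this list was lower in dox at an unadjusted p under 0.05 by limma. Against siControl, 5 of the 8 were higher in vehicle, Sesn2 among them, and none was lower. Of all genes 25.2% were higher and 19.5% lower there. The median of the list was 0.95 in that comparison, against 0.67 for the 10 members.

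**Figure D4:**
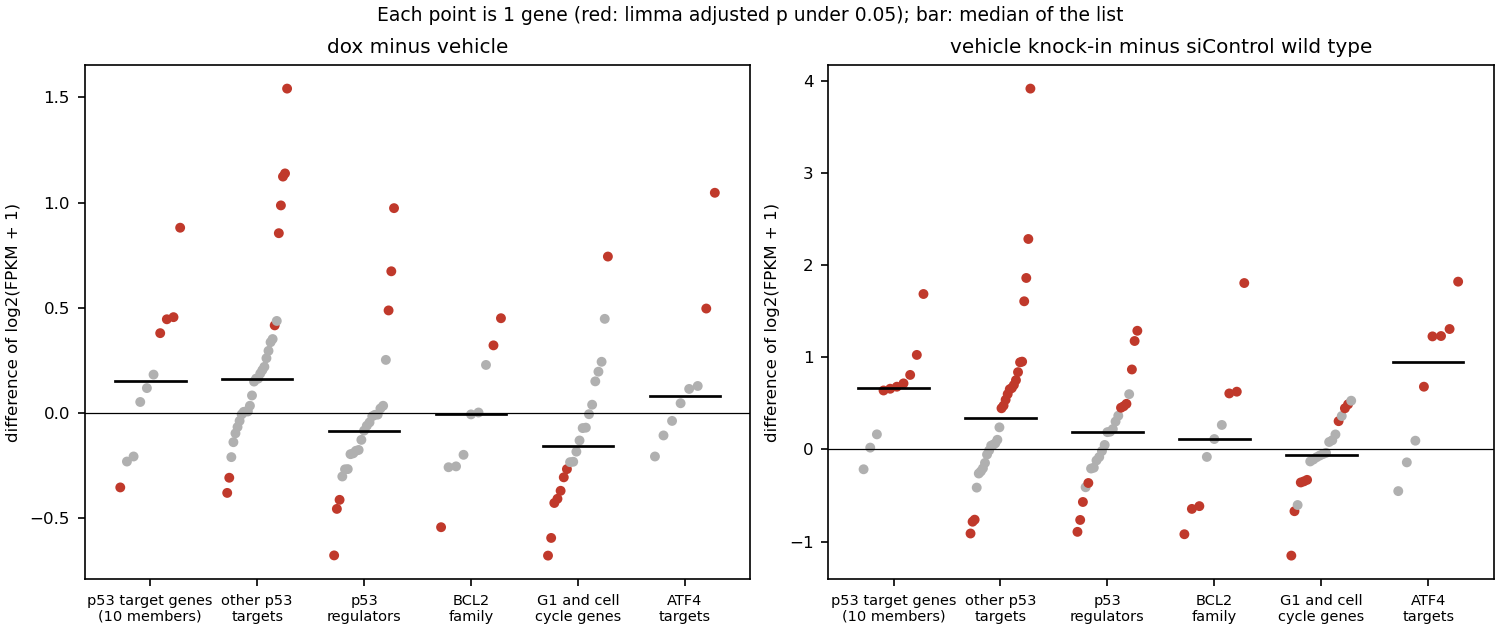
Difference of log2(FPKM + 1) of each gene (vertical axis) in the p53 target genes and in 5 related lists, for dox minus vehicle on the left and vehicle knock-in minus siControl wild type on the right. Red points passed limma at an adjusted p of 0.05 and bars are list medians. The cell cycle list has a median of -0.16 on the left, and the p53 target genes have a median of 0.67 on the right.

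In the wild-type cells the question was whether p53 targets differed after siRNA against the de novo DNA methyltransferases Dnmt3a and Dnmt3b. In an additive limma fit of the 4 libraries, no member passed the test for the Dnmt3a siRNA or for the Dnmt3b siRNA. Over all 11716 genes, 0.768% were higher and 1.32% lower with the Dnmt3a siRNA, and 0.188% and 0.265% with the Dnmt3b siRNA. At an unadjusted p under 0.05 by limma, 2 members differed with the Dnmt3a siRNA and none with the Dnmt3b siRNA. The shares above are for the adjusted p, and the share of all genes at this looser threshold is not given here. No excess can therefore be read from these 2. Each siRNA was present in 2 libraries and absent from 2, and the fit has 1 residual degree of freedom, the interaction of the siRNAs. limma moves each gene's variance towards that of all genes. With the Dnmt3a siRNA the SEs of the members were alike, from 0.099 (Mdm2) to 0.112 (Eda2r). The intervals and p-values therefore rest mostly on the spread over all genes, and little on the gene's own interaction. The 2 members that differed at the unadjusted p were Trp53inp1, at -0.30 (interval -0.52 to -0.09, limma adjusted p = 0.136), and Bbc3, at 0.27 (interval 0.07 to 0.48, limma adjusted p = 0.176).

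Both genes differed mainly in the double siRNA library. Trp53inp1 had 5.81 FPKM in the double siRNA library, 8.07 in siDnmt3a and 8.85 in siDnmt3b, against 8.55 FPKM in siControl. Bbc3 had 13.8 FPKM in the double siRNA library, 11.2 in siDnmt3a and 10.2 in siDnmt3b, against 10.1 FPKM in siControl. On the log2 scale the double siRNA library differed from siControl by -0.49 for Trp53inp1 and by 0.42 for Bbc3. They were the members past 1.25-fold in it, 1 higher and 1 lower, where 7.39% of all genes were higher and 7.58% lower by as much. No member was past 1.25-fold in siDnmt3a, where 1.34% of all genes were higher and 2.07% lower, or in siDnmt3b, where 0.64% were higher and 2.17% lower. At 1.5-fold no member remained, where in the double siRNA library 0.802% of all genes were higher and 1.15% lower, with 0.196% and 0.572% in siDnmt3a and 0.102% and 0.546% in siDnmt3b. At 2-fold the shares of all genes were 0.0939% and 0.128%, 0.0597% and 0.0854%, and 0.0341% and 0.0683% in the same order, again with no member. These are single libraries set against 1 shared siControl library, with no replicate check.

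The differences of the double siRNA library went with base composition over all genes. Across 11605 genes, which are not independent replicates, they correlated with GC content at a Spearman rho of 0.513 and with transcript length at -0.517. For siDnmt3a the GC value was 0.252 and for siDnmt3b -0.25. The knock-in comparisons also went with GC content, at 0.277 for dox against vehicle (11814 genes) and -0.234 for vehicle against siControl (11920 genes). Bbc3 has the highest GC content of the 10, at 65.2%, and Trp53inp1 the lowest, at 38.8%. After a correction in each library for GC content and length, Trp53inp1 was at -0.15 and Bbc3 at 0.20, and no member was past 1.25-fold. Ccng1 and Phlda3, at -0.26 and 0.21 as deposited, were at -0.04 and -0.04 after it.

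Cdkn1a had 36.8 FPKM in the double siRNA library, 36.5 in siDnmt3a and 34.3 in siDnmt3b, against 40.5 FPKM in siControl, so siControl was the highest of the 4. The differences were -0.13, -0.15 and -0.23. Plk2 had 7.08 FPKM in the double siRNA library, 7.62 in siDnmt3a and 7.69 in siDnmt3b, against 8.45 FPKM in siControl, again the highest. Mdm2 had 30.2 to 31.4 FPKM with the Dnmt3 siRNAs, against 33 FPKM in siControl, and Ccng1 had 32.6 to 39.1 FPKM, against 39.2 FPKM in siControl. The fibroblast sum was also highest in siControl of these libraries, at 147 FPKM, and its part in these values was not tested. Of the members past none of these thresholds, the value farthest from siControl was that of Ccng1 in the double siRNA library, at -0.26. Sesn2 was the steadiest of the 10 in the wild-type cells, between 32.8 and 34.0 FPKM.

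Few genes of the related lists passed the siRNA tests. Of 28 other p53 targets, Thbs1 was lower with the Dnmt3b siRNA, at -0.51 (limma adjusted p = 0.00082). With the Dnmt3a siRNA it was at -0.325 (limma adjusted p = 0.0682), which did not pass the test. Thbs1 had 13.6 FPKM in the double siRNA library, 15.3 in siDnmt3a and 13.4 in siDnmt3b, against 24.9 FPKM in siControl. It was thus low with either siRNA alone against the lone siControl library, and the fall was not particular to the Dnmt3b siRNA. Of 9 fibroblast markers tested, 6 were lower with the Dnmt3b siRNA, with a median of -0.47, and 6 with the Dnmt3a siRNA, with a median of -0.42, where 0.265% and 1.32% of all genes were lower. Their part in the Thbs1 value was not tested. Of 8 ATF4 targets, Trib3, a pseudokinase, was higher with the Dnmt3a siRNA, at 0.35 (limma adjusted p = 0.0398), where 0.768% of all genes were higher. Trib3 had 18.9 FPKM in the double siRNA library, 15.9 in siDnmt3a and 14 in siDnmt3b, against 12.8 FPKM in siControl. In the double siRNA library the largest differences among p53 regulators were those of Rpl11, a ribosomal protein that binds Mdm2, at 0.61, and of the damage kinases Atr and Atm, at -0.59 and -0.49. Among other p53 targets besides Thbs1 (-0.83) they were those of Rrm2b (-0.35), a ribonucleotide reductase subunit, and Bax (0.34), the pore-forming death effector.

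**Figure D5:**
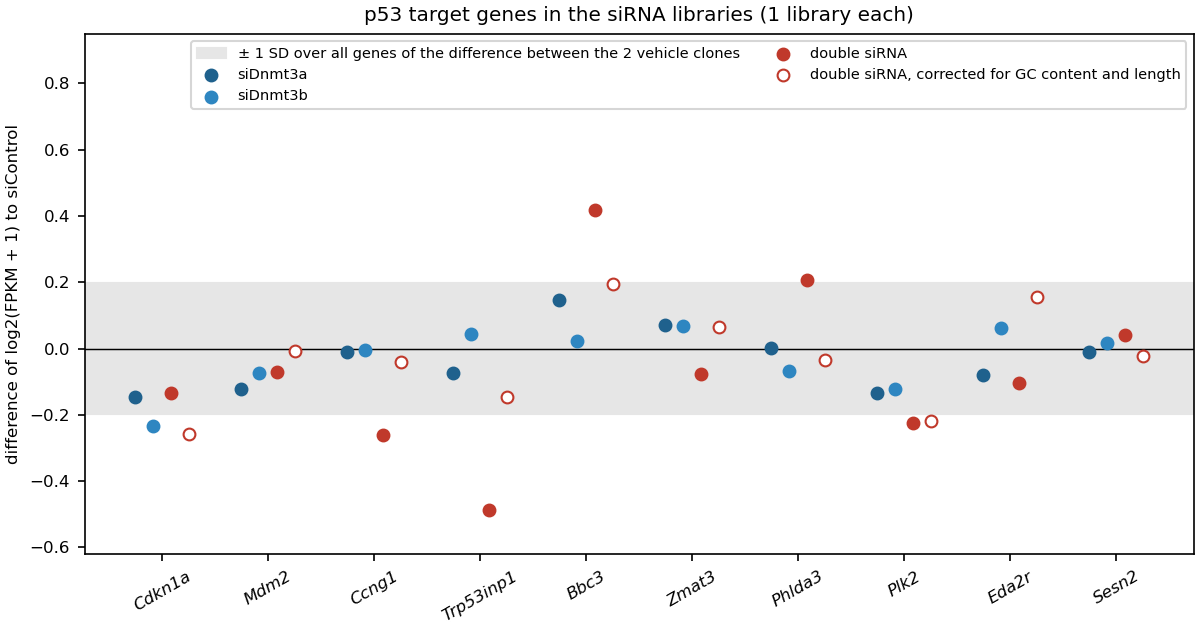
Difference of log2(FPKM + 1) to siControl (vertical axis) of each p53 target gene in the double siRNA, siDnmt3a and siDnmt3b libraries, 1 library each, as deposited (filled) and for the double siRNA after correction for GC content and length (open). The grey band is 1 SD over all genes of the difference between the vehicle clones. Trp53inp1 at -0.49 and Bbc3 at 0.42 lie farthest from 0 and move to -0.15 and 0.20 after the correction.

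The genes most like Cdkn1a and Mdm2 over the 8 libraries were sought among 8008 genes with a mean of 5 FPKM or more, by Pearson correlation of log2(FPKM + 1). The knock-in and wild-type libraries stand apart, so a high value reflects that step, and no p is given. For Cdkn1a, genes among the 5 closest were Csf1 and Ctsc (r = 0.9987 each), Nfkbia (0.9984) and Cdyl2 (0.9979). Csf1 had 44.8 and 51.6 FPKM in dox and 29.7 and 29.3 in vehicle, against 4.92 FPKM in siControl. For Mdm2 they were Ndel1 (0.9815), Gstm1 (0.9812), Cox6b2 (0.9798), Sgms1 (0.9795) and Ctss (0.979). Ndel1, the closest, had 21.1 and 23.3 FPKM in dox and 19.4 and 19.3 in vehicle, against 13.7 FPKM in siControl. No p53 target of the lists was among the 5 closest to Mdm2.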

How the data were processed

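Polyadenylated RNA of 8 iPSC libraries was sequenced. The submitters' processing notes name Cuffnorm, Cufflinks 2.2.1, TopHat2 2.0.10, SAMtools 0.1.19 and Bowtie 1.0.0 as tools and GRCm38 and mm10 as builds. The authors deposited 1 table of FPKM per gene and library. No source used here gives Cuffnorm's scaling option or the annotation release. The columns were matched to the libraries through the labels.

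The members and gene lists were chosen with earlier results of these data known. FPKM were transformed to log2(FPKM + 1), which understates changes of low genes, and tested two-sided with limma 3.58.1 in R 4.3.3 (lmFit, eBayes with trend, Benjamini-Hochberg over all genes tested). FPKM are shares of a library, and their sums ranged from 486917 to 586657. Whole reads could not be recovered: in the other libraries at most 17.8% of low genes lay at the most common ratio of values to siControl. Depth is therefore unknown, no count model was used, and no counting interval was computed.

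Clone numbers 1 and 2 occur in both knock-in groups, but whether a shared number means a shared clone is not stated in the labels. Across 11927 genes, the clone 2 minus clone 1 differences of dox and of vehicle correlated (r = 0.441), and the clone number was a block in an alternative fit. The GC content and transcript length correction used natural splines with 4 degrees of freedom per library. It and the differences within clones were added after the data were seen, and 99.1% of expressed genes had both properties.

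Besides the members, Trp53 and Mdm4, up to 6 genes past the threshold in dox and up to 3 with the largest double siRNA difference could be named per list, with the 5 genes most like Cdkn1a and Mdm2. Not all of the double siRNA genes are printed, and 1 gene that the rule would name is not reported here. Genes listed under older symbols were matched. The 1.25-fold threshold was added to the planned 1.5-fold and 2-fold. The fitting code was tested on simulated data.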

Additional observations from a re-analysis of the deposited data

Results flagged for a closer look

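Bbc3 moved in opposite directions when libraries were paired by clone number. Its dox minus vehicle difference was -0.229 in clone 1 (8.00 FPKM in dox, against 9.55 FPKM in vehicle) and 0.466 in clone 2 (10.9 FPKM in dox, against 7.58 FPKM in vehicle). Each value rests on 1 pair of libraries, matched by number only, and the difference between the pairs was not tested. Members with less than 0.1 in either clone were not considered.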

How the results depend on the processing

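Depth is unknown, 2 clones per group leave few degrees of freedom, and the siRNA and siControl groups have 1 library each, which limits the precision of every value. In dox against vehicle, 4 members were higher and 1 lower. Without the filter on low values the counts were 1 and 0, and the lower count was 0 without the trend or with the GC and length correction. With the replicate block 2 were lower, Sesn2 being added, and the block changed no other call of a member. Leaving out each library in turn gave 2 to 4 higher and 0 to 1 lower. All genes gave 2035 higher and 1767 lower, 3052 and 3190 with the block, 947 lower without the filter, 1289 higher at a mean of 5 FPKM or more, and 1100 to 2064 higher and 538 to 1993 lower with 1 library left out.

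Between vehicle and siControl, 7 members were higher and 4 without the filter, where Trp53inp1, Phlda3 and Sesn2 had adjusted p of 0.0626, 0.0501 and 0.0721. Over all genes this comparison gave 3037 higher and 2345 lower, and 2414 and 2770 without the filter. With all 4 wild-type libraries as the level, 8 members were higher, while 4135 of all genes were higher and 3873 lower. In the siRNA fits no member passed under any alternative, while the counts over all genes (90 higher and 155 lower for Dnmt3a, 22 and 31 for Dnmt3b) ranged from 0 to 115 and 0 to 179, and from 0 to 35 and 0 to 31. In the double siRNA library quantile normalization left 2 members lower by 1.25-fold, and the GC and length correction left 0 higher and 0 lower. Apart from the GC and length correction, whose construction removes that trend, the cause of these changes was not tested.

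Sign changes occurred for differences that had not passed the test. With the GC and length correction Bbc3 was at -0.049 in dox and 0.329 in vehicle against siControl. For the Dnmt3a siRNA it gave 0.026 for Ccng1, 0.046 for Zmat3, -0.027 for Phlda3, 0.054 for Eda2r and -0.055 for Sesn2, and for the Dnmt3b siRNA 0.004 for Mdm2, 0.019 for Zmat3 and -0.008 for Phlda3. Quantile normalization gave -0.052 for Zmat3 in vehicle against siControl and -0.015 for Sesn2 with the Dnmt3a siRNA. Between the libraries numbered clone 1 the dox difference was -0.013 for Mdm2 and -0.229 for Bbc3. Between those numbered clone 2 it was 0.028 for Trp53inp1. With 1 library left out, the ranges were between dox and vehicle -0.08 to 0.317 for Bbc3; between vehicle and siControl -0.047 to 0.086 for Zmat3; for the Dnmt3a siRNA -0.145 to 0.099 for Cdkn1a, -0.123 to 0.003 for Mdm2, -0.147 to 0.072 for Zmat3 and -0.011 to 0.022 for Sesn2; for the Dnmt3b siRNA -0.414 to 0.045 for Trp53inp1, -0.15 to 0.069 for Zmat3, -0.067 to 0.203 for Phlda3, -0.233 to 0.011 for Cdkn1a, -0.074 to 0.051 for Mdm2 and -0.022 to 0.062 for Eda2r.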
